A study of Homo sapiens with 12 samples.

Results

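The cathepsins are the digestive proteases of the lysosome, and 10 of their genes, CTSA, CTSB, CTSC, CTSD, CTSF, CTSH, CTSK, CTSL, CTSS and CTSZ, were followed here in HK-2 cells, an immortalised line from human kidney proximal tubule. The genes were taken by symbol. All 10 were found among the 26334 genes of the table, and all 10 were among the 12649 genes that reached 1 FPKM (fragments scaled to transcript length and library size, a level per gene length) in at least 3 libraries. The line carries a doxycycline-inducible PRCC-TFE3, a gene fusion of translocation renal cell carcinoma in which the transcription factor TFE3 is joined to PRCC. Cells were held for 48 h in one of 4 conditions with 3 libraries each, labelled as independent biological replicates. These were DMSO (vehicle), doxycycline with DMSO (Dox), MSC2530818 at 100 nM (inhibitor, a compound against the Mediator kinases CDK8 and CDK19), and doxycycline with MSC2530818 (Dox plus inhibitor). All 4 groups shared the same line, Tet-approved serum, puromycin and blasticidin S. No group received doxycycline without the fusion gene, so the drug and the fusion cannot be told apart, and the labels do not say whether the line is 1 clone.

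Cathepsins are made as inactive precursors, tagged with mannose 6-phosphate in the Golgi, carried to the lysosome by mannose 6-phosphate receptors and activated there at acid pH. CTSB, CTSC, CTSF, CTSH, CTSK, CTSL, CTSS and CTSZ are papain-like cysteine proteases, CTSD is an aspartic protease, and CTSA is a serine carboxypeptidase that also protects the sialidase NEU1 and the beta-galactosidase GLB1. In the proximal tubule, lysosomes break down the protein that the cells take up from the filtrate. TFE3 and its relatives TFEB and MITF are known to bind CACGTG-containing elements near the start sites of many lysosomal genes.

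TFE3, whose sequence is part of the fusion, stood at 35.8 ± 3.07 FPKM in vehicle, 149.7 ± 4.0 in Dox, 27.8 ± 1.75 with the inhibitor and 84.2 ± 3.05 in Dox plus inhibitor (mean ± SD, n = 3 each). PRCC, the other partner, had means of 28.5, 41.7, 22.8 and 28.7 FPKM. These values cannot separate the fusion from the cell's own genes. The rise of TFE3 with Dox was smaller with the inhibitor than without (difference of log2 changes -0.47, limma adjusted p = 0.023), a call that ended without any one of 7 libraries (each Dox library, Dox plus inhibitor 2 or 3, inhibitor 2 and vehicle 2), and the part of this difference in any cathepsin result below was not tested. Of 13 renal epithelial marker genes, 6 reached 1 FPKM (GGT1, MME, PAX8, KRT8, KRT18 and KRT19), while LRP2, CUBN, AQP1, ANPEP, SLC34A1, SLC22A6 and PAX2 did not. The 13 summed to 624.6 to 742.4 FPKM in vehicle, 528.9 to 552.5 in Dox, 774.4 to 916.0 with the inhibitor and 601.4 to 654.0 with both. Of the 6, 2 were called higher and 3 lower with Dox against vehicle, where 10.6% of all tested genes rose and 7.31% fell. Of 8 fibroblast markers, COL1A1 and LUM reached 1 FPKM and COL1A2 was listed at 0, and the 8 summed to 6.17 to 6.79 FPKM in vehicle, 10.68 to 11.99 in Dox, 4.77 to 7.15 with the inhibitor and 5.66 to 7.04 with both. LUM, the proteoglycan lumican, rose with Dox (log2 change 1.45, limma adjusted p = 0.0012) and fell with the inhibitor in Dox-treated cells (-1.15, adjusted p = 0.0029). COL1A1 had no called change with Dox (-0.16, adjusted p = 0.21) or with the inhibitor in Dox-treated cells (-0.08, adjusted p = 0.48). The part of these marker levels in the cathepsin results was not tested. No endothelial or lymphocyte marker reached 1 FPKM. FPKM summed to between 429208 and 473950 per library, and the read depth behind the values is unknown.

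Because the fusion partner belongs to a family that reads CACGTG, the promoters of the members come first. The RefSeq promoter table (GRCh38.p14, 250 bases before to 50 after each start) held 7 of the 10 genes, CTSA, CTSC, CTSD, CTSF, CTSH, CTSL and CTSZ. The 150 bases before the start are shown 5′ to 3′ for the 3 genes with a CACGTG and, for contrast, for CTSH and CTSL, which have none in the 300-base window. Capitals mark CACGTG and, in CTSA, the reverse-strand match to TCATGTG.
CTSA, chr20:45891185-45891334, plus strand: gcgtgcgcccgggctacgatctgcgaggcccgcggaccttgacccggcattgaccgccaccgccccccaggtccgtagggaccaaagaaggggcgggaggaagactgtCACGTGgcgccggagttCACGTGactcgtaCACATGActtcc
CTSD, chr11:1763928-1764077, minus strand: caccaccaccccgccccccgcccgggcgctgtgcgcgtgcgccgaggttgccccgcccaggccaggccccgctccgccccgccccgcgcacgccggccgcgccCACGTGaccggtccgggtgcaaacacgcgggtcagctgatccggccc
CTSF, chr11:66568607-66568756, minus strand: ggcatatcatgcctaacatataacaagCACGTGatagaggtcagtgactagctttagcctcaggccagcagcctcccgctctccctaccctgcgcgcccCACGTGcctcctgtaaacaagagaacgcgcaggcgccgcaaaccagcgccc
CTSH, chr15:78945047-78945196, minus strand: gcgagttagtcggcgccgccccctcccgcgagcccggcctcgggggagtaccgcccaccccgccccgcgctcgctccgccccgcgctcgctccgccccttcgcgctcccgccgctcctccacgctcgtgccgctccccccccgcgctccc
CTSL, chr9:87725969-87726118, plus strand: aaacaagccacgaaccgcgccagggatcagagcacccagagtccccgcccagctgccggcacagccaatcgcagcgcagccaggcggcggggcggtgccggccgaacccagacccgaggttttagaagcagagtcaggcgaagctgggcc
CTSA had CACGTG at -42 and -25 from the start, the one at -25 lying within TCACGTGA, and TCATGTG on the reverse strand at -12. CTSD had a single CACGTG at -47, and CTSF had 2, at -123 and -51. Searched on both strands, CACGTG was in 3 of 7 cathepsin promoters (42.9%), in 7.26% of all 35116 promoters in the table and in 9.54% of the 13661 promoters of tested genes, some of which have several. TCACGTGA, which contains CACGTG, was in 0.98% of all promoters, and TCATGTG was in 2.92%. A match describes letters in this window and does not show binding. Only the listed start of each gene was searched, and for the genes shown it lies inside the GENCODE gene model. The absence of a motif therefore does not cover other starts of a gene.

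The genes lie on 6 autosomes (GENCODE 29 on GRCh38): CTSA and CTSZ (chr20:58995185-59007247, minus strand) on 20, CTSC (chr11:88293592-88337787), CTSD (chr11:1752752-1764573) and CTSF (chr11:66563463-66568841) on 11, all minus strand, and the neighbours CTSS (chr1:150730196-150765957) and CTSK (chr1:150796208-150808323) on 1, minus strand. CTSH (chr15:78921058-78949574, minus strand) is on 15, CTSL (chr9:87725519-87731393, plus strand) on 9 and CTSB on 8. FPKM sums whole gene models here, without a split into exons or isoforms.

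In the vehicle libraries the family was uneven. CTSZ (cathepsin X, a carboxypeptidase) stood highest at 651.8 ± 38.8 FPKM in vehicle, followed by CTSD at 176.3 ± 18.4 and CTSA at 94.4 ± 6.45. CTSB (42.65 ± 1.92) and CTSC (41.89 ± 1.29) overlapped between libraries, and CTSL (37.35 ± 0.90), CTSH (29.36 ± 3.16), CTSF (16.28 ± 1.84), CTSS (11.88 ± 0.29) and CTSK (2.18 ± 0.15) followed without overlap of neighbours. In every group CTSZ was first, CTSD the next, CTSA the third and CTSK last. The middle of the order moved: CTSB overlapped CTSL in Dox, CTSB and then CTSH led CTSC and CTSL with the inhibitor, and CTSC overlapped CTSL in Dox plus inhibitor. CTSZ alone made up 59.04% of the summed cathepsin FPKM in vehicle and 43.68% in Dox, while CTSD went from 15.96% to 26.16%. The sum of all 10 was 1042 to 1181 FPKM in vehicle, 1317 to 1411 in Dox, 1021 to 1192 with the inhibitor and 1021 to 1145 in Dox plus inhibitor, so that only the Dox libraries lay above the other 3 groups.

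**Figure D1:**
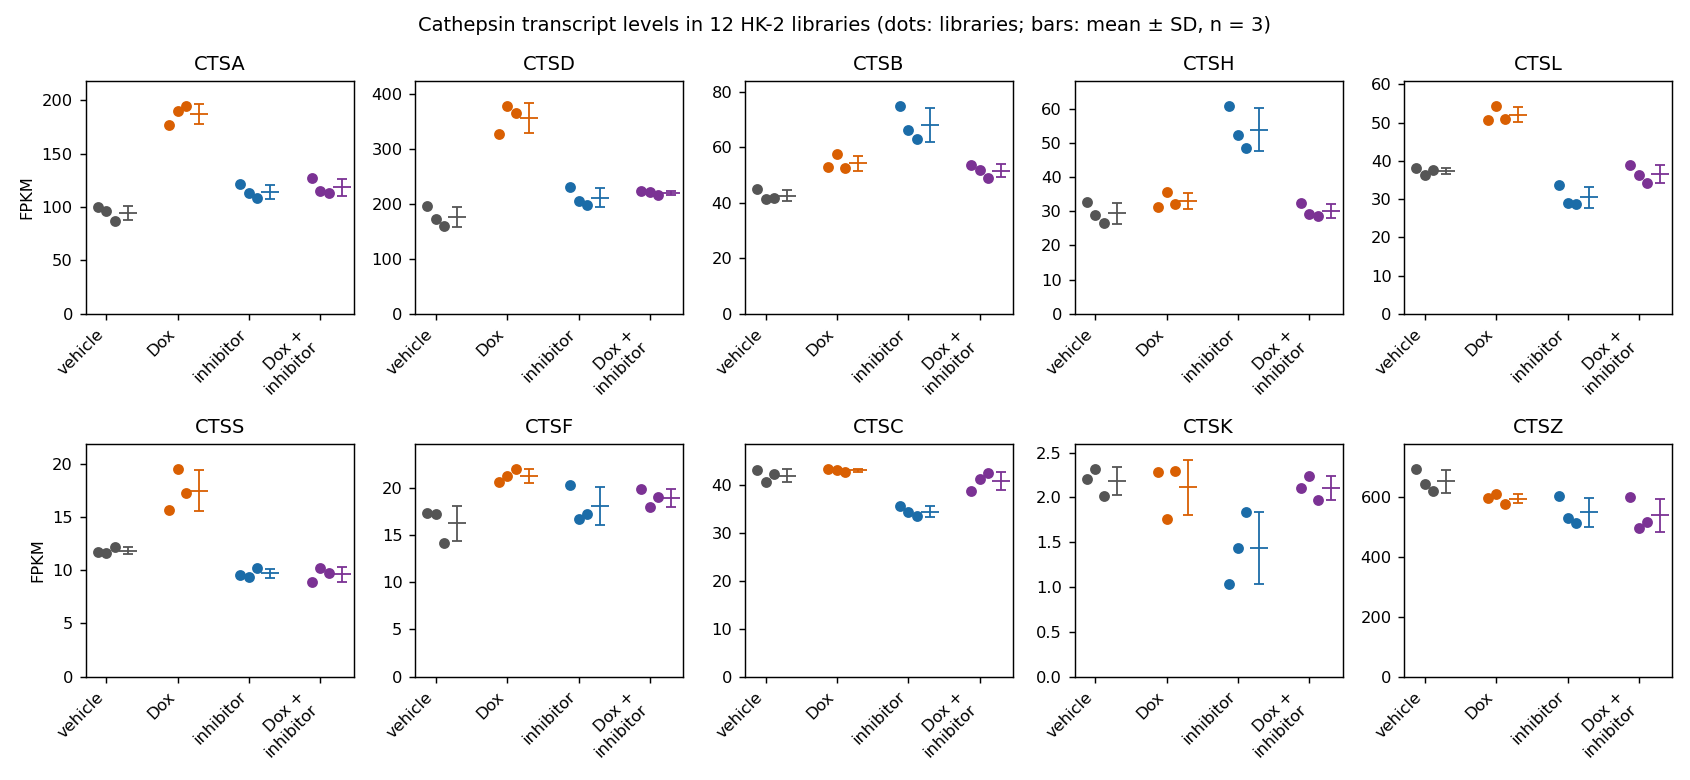
FPKM of each cathepsin gene (vertical axes from 0, 1 panel per gene) in every library (points) with mean ± SD beside them (n = 3) for the vehicle, Dox, inhibitor and Dox plus inhibitor groups. CTSA and CTSD lie above all other libraries in the 3 Dox libraries, CTSB and CTSH in the 3 inhibitor libraries, and CTSZ is highest in the vehicle libraries.

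Tests compared groups on log2(FPKM + 1) with limma over all tested genes, at a Benjamini-Hochberg adjusted p under 0.05. With Dox against vehicle, 6 of the 10 cathepsins rose (CTSA, CTSB, CTSD, CTSF, CTSL and CTSS) and none fell, also at an unadjusted p under 0.05, where 10.6% of all tested genes rose and 7.31% fell. Their median log2 change was 0.36, beside 0.04 over all tested genes. When the inhibitor was present in both arms, Dox raised 2 (CTSC and CTSL) and lowered 2 (CTSB and CTSH), where 12.2% of tested genes rose and 6.06% fell, and the members' median was 0.06 beside 0.08. The change with Dox differed by presence of the inhibitor for 5 members, all toward a smaller rise or a fall (CTSA, CTSB, CTSD, CTSH and CTSS), where 2.82% of tested genes differed, 1.91% in that direction and 0.909% in the other. No member differed the other way after adjustment, and 2 did at an unadjusted p under 0.05. The inhibitor alone, against vehicle, raised 4 (CTSA, CTSB, CTSD and CTSH) and lowered 5 (CTSC, CTSK, CTSL, CTSS and CTSZ), where 38.0% of tested genes changed (11.7% rose and 26.3% fell). In Dox-treated cells the inhibitor lowered 4 (CTSA, CTSD, CTSL and CTSS), where 20.8% of tested genes fell, and raised none, also at an unadjusted p under 0.05. Groups without overlap between libraries were found for 6 members upward and 1 downward (CTSZ) with Dox against vehicle, where 39.0% of tested genes had such ranges, 22.8% upward and 16.2% downward. For Dox in inhibitor-treated cells this was so for 3 upward and 2 downward (36.9% of tested genes, 25.2% upward and 11.7% downward). The counts were 4 and 5 for the inhibitor against vehicle (43.7%, of which 13.8% upward and 29.9% downward), and 6 downward for the inhibitor in Dox-treated cells (34.5% downward).

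Leaving out replicate 2 of all 4 groups, which leaves 2 libraries each, ended every call of the difference (CTSA -0.92, adjusted p = 0.2; CTSH -0.92, adjusted p = 0.36), with 5 members still at an unadjusted p under 0.05. In the same setting 2 calls were left for Dox against vehicle (CTSA and CTSD; CTSB at 0.28, adjusted p = 0.25, CTSF at 0.42, adjusted p = 0.15, CTSL at 0.42, adjusted p = 0.095, and CTSS at 0.43, adjusted p = 0.07). No call was left for Dox in inhibitor-treated cells (3 at an unadjusted p under 0.05), 2 were left for the inhibitor against vehicle and 4 for the inhibitor in Dox-treated cells. Leaving out replicate 3 of all groups ended the call of the difference for CTSB (limma adjusted p = 0.076), CTSD (0.076), CTSH (0.079) and CTSS (0.36), but not for CTSA. It also ended calls for CTSB (adjusted p = 0.054) and CTSF (0.17) with Dox against vehicle. Calls of CTSC and CTSL for Dox in inhibitor-treated cells ended as well, as did those of CTSA, CTSD, CTSL, CTSS and CTSZ for the inhibitor against vehicle. Comparisons that share a group share its libraries, and the inhibitor's effect on the whole transcriptome was off centre, with a median log2 change of -0.12 against vehicle.

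**Figure D2:**
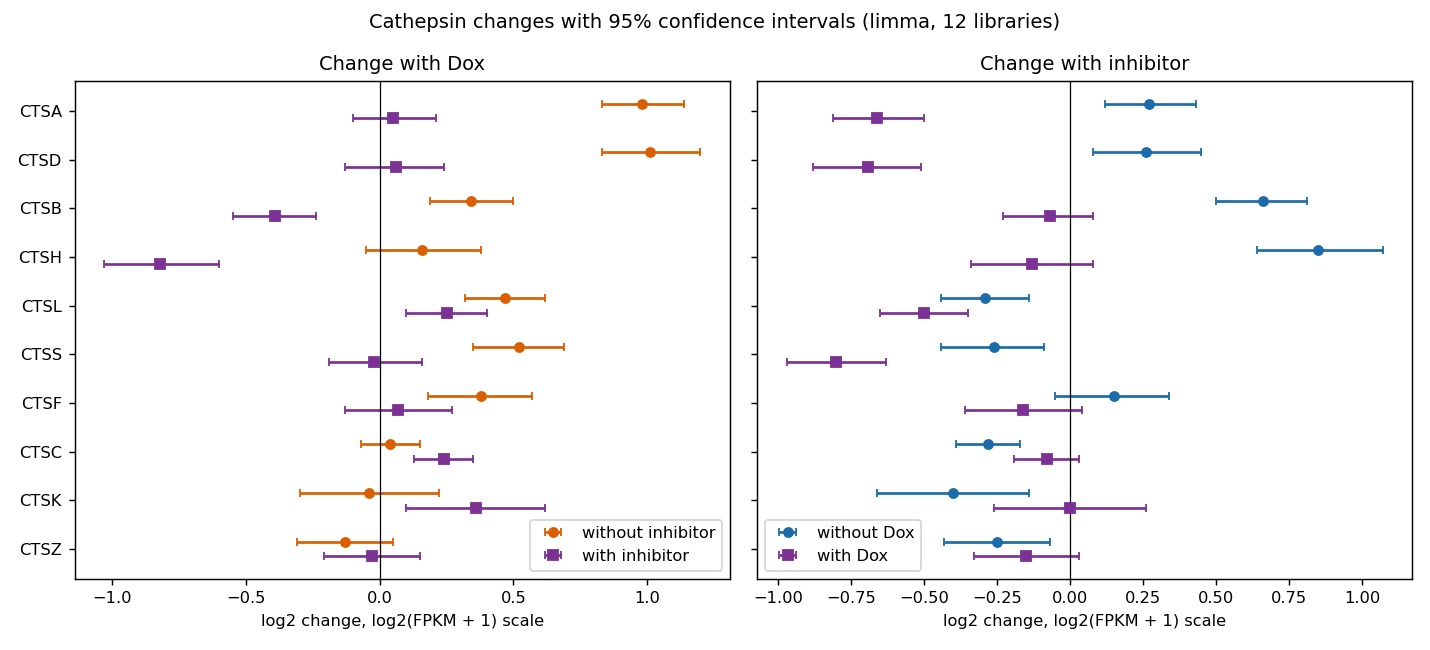
Change of each cathepsin gene on the log2(FPKM + 1) scale (points, limma estimates; lines, 95% confidence intervals): with Dox on the left, without (orange) and with (purple) the inhibitor, and with the inhibitor on the right, without (blue) and with (purple) Dox. For Dox, CTSA at 0.98 and CTSD at 1.01 drop to 0.05 and 0.06 with the inhibitor, and CTSH goes from 0.16 to -0.82.

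The aspartic and serine members changed most with Dox. CTSD, the main aspartic protease of lysosomes, stood at 196, 173 and 159.9 FPKM in the vehicle libraries and at 326, 378 and 364 in Dox. With the inhibitor it stood at 230.4, 206 and 197, and in Dox plus inhibitor at 223, 220.7 and 215. The 3 Dox libraries lay above all 9 others, which spanned 159.9 to 230.4. Dox raised CTSD 2.02-fold in the group means, a log2 change of 1.01 ± 0.08 (SE, limma adjusted p = 1.2e-05). In inhibitor-treated cells the change was 0.06 (95% interval -0.13 to 0.24, adjusted p = 0.63), and the difference of the 2 changes was -0.95 ± 0.12 (adjusted p = 0.0015). With GC and length trends removed, the Dox change in inhibitor-treated cells was a called rise of 0.15 (limma adjusted p = 0.033). Adding the replicate block to that setting gave 0.15 as well (limma adjusted p = 0.031). The inhibitor lowered CTSD in Dox-treated cells (-0.69, adjusted p = 9.9e-05). Its rise in cells without Dox was small (0.26, adjusted p = 0.03) and was no longer called without any one of vehicle replicates 2 and 3 or inhibitor replicates 1 and 2. In the GENCODE models, AC068580.4 overlaps CTSD on the same strand and shares 46.07% of its 31-base words, so the level of CTSD is uncertain to the extent that reads were divided between them.

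CTSA, the protective protein of the sialidase complex, followed the same course. It stood at 99.99, 95.9 and 87.4 FPKM in vehicle, at 177, 190.2 and 195 in Dox, at 121, 113 and 108 with the inhibitor and at 127, 115 and 113 in Dox plus inhibitor. Again the Dox libraries were above all others, and the 2 inhibitor groups overlapped each other and lay above vehicle. The log2 change with Dox was 0.98 ± 0.07 (1.98-fold in means, limma adjusted p = 4.3e-06) and with the inhibitor present 0.05 (95% interval -0.10 to 0.21, adjusted p = 0.61). The difference was -0.93 ± 0.10 (adjusted p = 0.00054). The inhibitor raised CTSA without Dox (0.27, adjusted p = 0.011) and lowered it with Dox (-0.66, adjusted p = 3.9e-05). CTSA lies on chromosome 20 (chr20:45890144-45898820, plus strand, GENCODE 29 on GRCh38) and overlaps NEURL2 by 1144 bases, AL008726.1 by 726 and PLTP by 200, all on the other strand. NEURL2 had means of 1.46, 1.78, 2.33 and 1.92 FPKM in the same order of groups, with no called change with Dox (0.18, adjusted p = 0.4). PLTP, the phospholipid transfer protein gene, had means of 14.63, 23.27, 19.78 and 20.23 and rose with Dox (0.63, adjusted p = 0.0012). AL008726.1 was not analysed here, and whether the counting used strand is not given in the sources used here.

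Among the cysteine endopeptidases, CTSL and CTSS rose with Dox by 1.39-fold and 1.48-fold in the group means. CTSL, which degrades proteins taken up or delivered by autophagy, stood at 38.1, 36.3 and 37.7 FPKM in vehicle and at 50.8, 54.4 and 51.1 in Dox. It stood at 33.6, 29.1 and 28.8 with the inhibitor and at 38.9, 36.4 and 34.3 in Dox plus inhibitor. Dox libraries were the highest and inhibitor libraries the lowest, and the vehicle and Dox plus inhibitor ranges overlapped. CTSL rose by 0.47 ± 0.07 with Dox (limma adjusted p = 0.00073) and by 0.25 ± 0.07 with Dox in inhibitor-treated cells (adjusted p = 0.027), and these changes were not shown to differ (-0.21, 95% interval -0.43 to 0.00, adjusted p = 0.35). The second rise was no longer called without any one of inhibitor replicates 2 and 3 or Dox plus inhibitor replicates 1 and 2 (0.21 to 0.26, adjusted p = 0.068 to 0.093), nor by median-ratio scaling (0.17, adjusted p = 0.12) or with only the 2 groups compared (0.25, adjusted p = 0.098). Of CTSL's 31-base words, 4.79% occur in 10 other gene models, among them CTSL pseudogenes. The share was 7.97% for CTSB (5097 other gene models), 6.74% for CTSS (2433) and 2.65% for CTSC (69). The inhibitor lowered CTSL both without Dox (-0.29, adjusted p = 0.0067) and with it (-0.50, adjusted p = 0.00023).

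CTSS, an endopeptidase best known from antigen-presenting cells that keeps its activity at neutral pH, stood at 11.8, 11.7 and 12.2 FPKM in vehicle and at 15.7, 19.6 and 17.3 in Dox. With the inhibitor it stood at 9.57, 9.40 and 10.2, and in Dox plus inhibitor at 8.88, 10.2 and 9.80. The Dox libraries were the highest, vehicle lay between, and the inhibitor groups overlapped at the bottom. CTSS rose by 0.52 ± 0.08 with Dox (limma adjusted p = 0.00088), fell by 0.80 ± 0.08 with the inhibitor in Dox-treated cells (adjusted p = 1.9e-05) and by 0.26 in cells without Dox (adjusted p = 0.021, a call lost without vehicle replicate 3 or inhibitor replicate 2). With GC and length trends removed the latter was -0.09 (adjusted p = 0.54), and by quantile normalization -0.17 (adjusted p = 0.13). The Dox change in inhibitor-treated cells was -0.02 (95% interval -0.19 to 0.16), and the difference of -0.53 (adjusted p = 0.026) was no longer called without any one of 7 libraries, namely vehicle 2, Dox 2 or 3, inhibitor 2 or 3 and Dox plus inhibitor 1 or 3 (-0.56 to -0.46, adjusted p = 0.055 to 0.077). Of 10 macrophage markers only FCER1G reached 1 FPKM in any library, their sum was 0.57 to 1.08 FPKM in vehicle and 0.97 to 2.2 in Dox (0.58 to 0.69 with the inhibitor and 0.49 to 1.02 with both), and C1QA, C1QB, TYROBP and AIF1 were listed at 0.

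CTSF, a less studied papain-like endopeptidase, stood at 17.4, 17.3 and 14.2 FPKM in vehicle, 20.6, 21.3 and 22.1 in Dox, 20.4, 16.7 and 17.3 with the inhibitor and 19.9, 18.0 and 19.1 in Dox plus inhibitor. The Dox libraries lay above all others, and the inhibitor range overlapped both vehicle and Dox plus inhibitor, which were apart from each other. It rose by 0.38 ± 0.09 with Dox (limma adjusted p = 0.014), a call that ended without Dox replicate 3 (0.35, adjusted p = 0.059). In the main fit no other change of CTSF was called, and the difference of its Dox changes was -0.31 (95% interval -0.59 to -0.03, adjusted p = 0.3). CTSK, the collagen-degrading protease of osteoclasts, was near the floor of the tested genes at 2.21, 2.32 and 2.02 FPKM in vehicle and 2.28, 1.76 and 2.29 in Dox. It stood at 1.03, 1.44 and 1.84 with the inhibitor and 2.10, 2.24 and 1.97 in Dox plus inhibitor. Inhibitor libraries were the lowest, apart from vehicle and Dox plus inhibitor but overlapping Dox. The inhibitor lowered CTSK without Dox (-0.40 ± 0.12, adjusted p = 0.021), a call lost without vehicle replicate 2 or inhibitor replicate 1 or 2, and Dox with the inhibitor gave 0.36 (adjusted p = 0.056, or 0.044 with the replicate number as a block). The 6 osteoclast markers summed to 110.4 to 125.1 FPKM in vehicle, 76.16 to 79.18 in Dox, 168.6 to 177.5 with the inhibitor and 143.7 to 150.3 with both, and OCSTAMP and DCSTAMP were listed at 0. ITGB3, an integrin gene, was the only one of the 6 to reach 1 FPKM, and the part of these levels in the CTSK result was not tested.

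The exopeptidases CTSB and CTSH had another pattern, with the highest levels under the inhibitor alone. CTSH, an aminopeptidase, stood at 32.8, 28.8 and 26.5 FPKM in vehicle and at 31.3, 35.6 and 32.1 in Dox. It stood at 60.8, 52.2 and 48.6 with the inhibitor and at 32.4, 29.2 and 28.6 in Dox plus inhibitor. The 3 inhibitor libraries lay above all 9 others, whose ranges overlapped. The inhibitor raised CTSH 1.83-fold in means (log2 change 0.85 ± 0.10, limma adjusted p = 5.3e-05), and Dox lowered it in inhibitor-treated cells (-0.82 ± 0.10, adjusted p = 0.00032). Against vehicle, Dox gave 0.16 (95% interval -0.05 to 0.38, adjusted p = 0.27), and the difference of the 2 Dox changes was -0.98 ± 0.14 (adjusted p = 0.0029). The change against vehicle was a called rise with GC and length trends removed (0.18, limma adjusted p = 0.03, or 0.024 with the replicate block). Without replicate 1 of all groups it was also called (0.28, adjusted p = 0.023). In Dox-treated cells the inhibitor gave -0.13 (95% interval -0.34 to 0.08).

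CTSB, which cuts both inside and at the end of proteins, stood at 44.9, 41.5 and 41.6 FPKM in vehicle and 52.8, 57.5 and 52.6 in Dox. With the inhibitor it stood at 75.0, 66.4 and 62.9, and in Dox plus inhibitor at 53.7, 52.0 and 49.0. Inhibitor libraries were the highest and vehicle the lowest, and the 2 groups with Dox overlapped between them. Each agent alone raised it, Dox by 0.34 ± 0.07 (limma adjusted p = 0.0063) and the inhibitor by 0.66 ± 0.07 (adjusted p = 3.4e-05). Added to inhibitor-treated cells, Dox lowered it (-0.39 ± 0.07, adjusted p = 0.0042), and the difference of the Dox changes was -0.73 ± 0.10 (adjusted p = 0.0026). In Dox-treated cells the inhibitor gave -0.07 (95% interval -0.23 to 0.08).

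CTSC, the dipeptidyl peptidase that activates granule serine proteases, stood at 43.0, 40.5 and 42.2 FPKM in vehicle, 43.3, 43.0 and 42.7 in Dox, 35.6, 34.2 and 33.4 with the inhibitor and 38.7, 41.2 and 42.4 in Dox plus inhibitor. The inhibitor libraries lay below all others, and the Dox plus inhibitor libraries lay below Dox without a called change (-0.08, limma adjusted p = 0.27). The inhibitor lowered it without Dox (-0.28 ± 0.05, limma adjusted p = 0.0012), but with trends of GC content and gene length removed the value was -0.11 (adjusted p = 0.55). Dox gave 0.04 against vehicle (95% interval -0.07 to 0.15). The rise with Dox in inhibitor-treated cells (0.24 ± 0.05, adjusted p = 0.0082) turned to -0.05 (adjusted p = 0.85) with the same trends removed, and was not called by median-ratio scaling (0.15, adjusted p = 0.058). CTSZ stood at 694, 643 and 618 FPKM in vehicle and 597, 609.6 and 577 in Dox, with no overlap, but the change of -0.13 was not called (95% interval -0.31 to 0.05, adjusted p = 0.3). It stood at 604, 529 and 513 with the inhibitor and 601, 497 and 517 in Dox plus inhibitor, overlapping each other, and the fall with the inhibitor alone (-0.25, adjusted p = 0.033) was lost without any one of vehicle replicates 1 and 2 or inhibitor replicates 2 and 3.

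The inhibitor alone also moved the median of all tested genes, by -0.12, and the members are given here relative to it. CTSC, CTSK, CTSL, CTSS and CTSZ lay at -0.16, -0.28, -0.17, -0.15 and -0.13, and CTSA, CTSB, CTSD and CTSH at 0.39, 0.78, 0.38 and 0.97. Which of the 5 falls kept a call depended on the processing. Scaling by the median ratio, which moved the median of all genes by 0.11, left CTSC (-0.16, limma adjusted p = 0.028) and gave CTSF a called rise (0.26, adjusted p = 0.046). Quantile normalization, which moved it by 0.09, left CTSC (-0.21, adjusted p = 0.0067), CTSL (-0.22, adjusted p = 0.019) and CTSZ (-0.29, adjusted p = 0.0018). Removing trends with GC content and length left CTSL (-0.23, adjusted p = 0.0016) and CTSZ (-0.21, adjusted p = 0.0022). It also gave CTSF a called rise (0.17, limma adjusted p = 0.026). CTSB and CTSH were called higher in all 26 alternatives run, at 0.59 to 0.78 and 0.76 to 0.97.

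**Figure D3:**
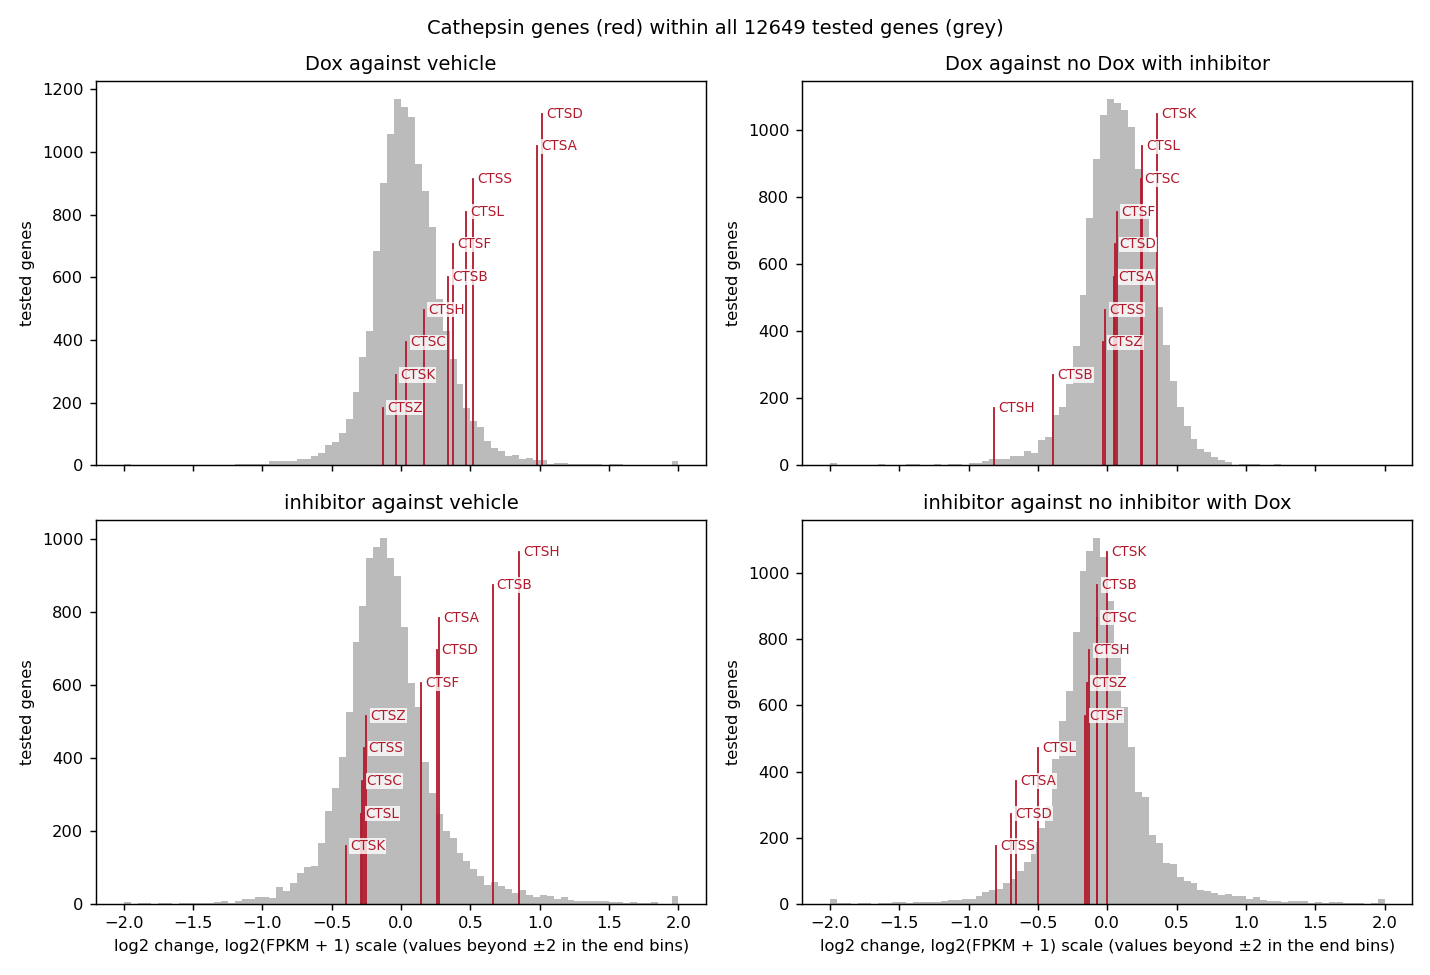
Histograms of the log2 change, on the log2(FPKM + 1) scale, of all 12649 tested genes (grey, number of genes on the vertical axis) in the 4 pairwise comparisons, with the cathepsins as red lines whose heights only separate the names. Among the cathepsins, CTSA and CTSD stand furthest right for Dox against vehicle, and CTSB and CTSH for the inhibitor against vehicle. CTSS, CTSD, CTSA and CTSL stand furthest left of them for the inhibitor in Dox-treated cells.

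Genes that handle or accompany the cathepsins were read from lists. For all the lists below, the share over all tested genes was 10.6% rising with Dox against vehicle. A difference of Dox changes toward a smaller rise or a fall with the inhibitor was called for 1.91%. Of 12 tested genes of lysosomal enzyme sorting, 6 rose with Dox against vehicle and 2 had a smaller change with the inhibitor. IGF2R, the cation-independent mannose 6-phosphate receptor, went from 57.79 to 97.26 FPKM (log2 change 0.74, limma adjusted p = 2.6e-06) and M6PR, the cation-dependent one, from 83.41 to 131.5 (0.65, adjusted p = 2.3e-05), with differences of -0.33 (adjusted p = 0.027) and -0.50 (adjusted p = 0.0074) when the inhibitor was present. The IGF2R difference was no longer called without any one of 9 libraries, those other than vehicle 1, inhibitor 1 and Dox plus inhibitor 1. VPS26A, a retromer subunit, went from 42.36 to 73.41 (0.83, adjusted p = 0.044, lost without any one of 8 libraries: each Dox library, vehicle 1 or 2, inhibitor 2 and Dox plus inhibitor 2 or 3), and GGA2, an adaptor of the receptors, from 19.55 to 28.54 (0.53, adjusted p = 0.00015). Of 14 genes of cathepsin inhibitors, 3 were tested and 1 rose, CSTB (cystatin B, 145.8 to 183.2 FPKM, 0.33, adjusted p = 0.022, lost without any one Dox library or vehicle 2 or 3). Of the 6 tested genes of other lysosomal peptidases, 5 rose, among them TPP1, a tripeptidyl peptidase (16.67 to 36.47, 1.08, adjusted p = 4.7e-07), and SCPEP1, a serine carboxypeptidase (18.09 to 31.74, 0.78, adjusted p = 1.2e-05). TPP1 rose less with the inhibitor (difference -0.61, adjusted p = 0.002), whereas for SCPEP1 the rise with the inhibitor was 0.72 (difference -0.06, adjusted p = 0.87). LGMN, the asparaginyl endopeptidase that processes cathepsin precursors, went from 51.09 to 69.85 (0.45, adjusted p = 0.0039).

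The partners of CTSA both rose with Dox. NEU1 had means of 64.29 FPKM in vehicle, 159.2 in Dox, 32.58 with the inhibitor and 52.25 in Dox plus inhibitor. It rose with Dox (1.30, limma adjusted p = 3.8e-06), still rose with Dox in inhibitor-treated cells (0.67, adjusted p = 0.00085) and fell with the inhibitor alone (-0.95, adjusted p = 1.6e-05) and in Dox-treated cells (-1.59, adjusted p = 3.7e-07). The difference of its Dox changes was -0.63 (adjusted p = 0.025), a call lost without any one of vehicle 2, Dox 2 or 3 and Dox plus inhibitor 2 or 3. Differences between NEU1 and CTSA were not tested. GLB1 had means of 26.34, 32.47, 33.17 and 36.16 and rose with either agent (0.29, adjusted p = 0.024, and 0.32, adjusted p = 0.0076), the first call being lost without Dox 2 or 3 or vehicle 2 or 3. Of 28 tested other lysosomal hydrolases, 18 rose with Dox and 11 rose with Dox in inhibitor-treated cells, beside 10.6% and 12.2% of all tested genes. The median log2 change of these hydrolases with Dox against vehicle was 0.39, beside 0.04 over all tested genes. ASAH1, acid ceramidase, went from 18.44 to 56.37 (1.57, adjusted p = 9.7e-06), and ACP5, the tartrate-resistant acid phosphatase, from 9.43 to 28.36 (1.49, adjusted p = 2.3e-06). The remaining cathepsin genes gave 3 tested of 6, and CTSV, the closest relative of CTSL, rose from 11.96 to 15.38 (0.34, adjusted p = 0.0047).

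**Figure D4:**
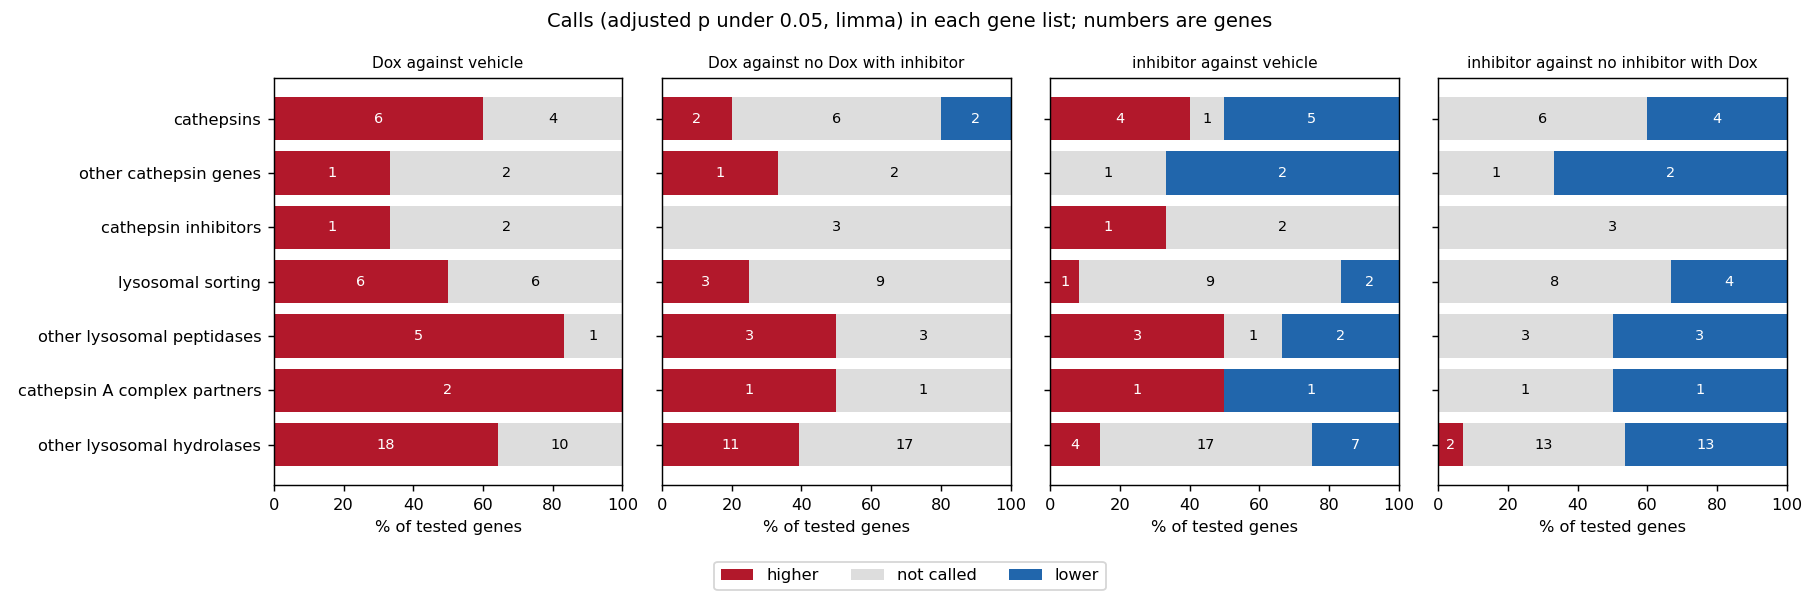
Share of tested genes (horizontal axis, percent; numbers in the bars are genes) called higher, lower or not called by limma at an adjusted p under 0.05, in the cathepsins and in each related list, for the 4 pairwise comparisons. With Dox against vehicle each list has called rises and no called falls, whereas with Dox in inhibitor-treated cells the cathepsins have 2 of each.

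Over the 12 libraries, the genes with levels most like CTSD were CTSA (Pearson r = 0.992), CDKN1A, a cell cycle inhibitor (0.985), and VAT1, a membrane oxidoreductase (0.984). CDKN1A had means of 21.82, 42.16, 27.21 and 27.16 FPKM and VAT1 98.56, 196.5, 104.4 and 117.6. For CTSH they were SEMA4D (0.965), OCIAD2 (0.962) and SH3KBP1 (0.951), and SEMA4D, a semaphorin, had means of 6.95, 7.73, 12.12 and 7.67. These are descriptions over libraries that share 4 conditions.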

How the data were processed

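RNA of 12 HK-2 libraries (TRIzol, stranded poly(A) kit) was sequenced. The values are FPKM per gene, deposited by the authors. Per the submitters' processing notes, tools included Salmon 1.9.0 and Trim Galore 0.6.7, and the builds listed, without roles, were hg38 and GRCh38.p13. The low values showed no steps of whole reads, so depth is unknown and no count test was run. Nothing beyond the labels says how separate the replicates of a group were, and p-values measure the spread between them.

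Group means were fitted to log2(FPKM + 1) over all 12 libraries with limma 3.58.1 (R 4.3.3, trended variance, 8 residual degrees of freedom) on the 12649 of 26334 genes with at least 1 FPKM in at least 3 libraries. A fold change on this scale understates that of low genes. P-values were Benjamini-Hochberg adjusted over all of these, 0.05 being the threshold, and the difference of Dox changes was an interaction contrast. On simulated data for Dox against vehicle (12649 genes), 92% of genes changed by a log2 of 1 and 73% of those changed by 0.5 were recovered, with 5 false calls. The simulated noise was independent between genes and libraries, and far fewer genes were changed than were called in the real data. These figures therefore do not give the error rate of the calls above. For Dox with inhibitor, deviations of same-numbered libraries correlated at 0.133 to 0.549, and those of differently numbered libraries at -0.434 to 0.154. The lowest same-numbered value, that of replicate 2, was thus within the range of the differently numbered pairs. The blocked fit called 4548 genes there in place of 2304, and the labels give no shared batch. Named related genes were up to 4 per list, those called for Dox against vehicle or the interaction with the largest Dox change, with TFE3, PRCC and, for CTSD and CTSH (the largest called Dox and inhibitor changes), the 3 genes of highest Pearson r; some that the rule gave are not reported here. The members and lists were chosen with earlier results of these data known. Alternatives were scaling, pseudocount, filter, block, GC and length trends, and leaving out libraries.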

Additional observations from a re-analysis of the deposited data

Results flagged for a closer look

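The change with Dox differed between cells with and without the inhibitor, by limma's interaction contrast, for 5 of 10 cathepsins, 2 of 12 tested sorting genes, 2 of 6 other lysosomal peptidases, 1 of 2 CTSA partners, 5 of 28 other hydrolases and TFE3, where 2.82% of all tested genes differed. As Dox change with the inhibitor minus Dox change without it (log2), the values were -0.98 for CTSH, -0.95 for CTSD, -0.93 for CTSA, -0.73 for CTSB and -0.53 for CTSS. All of these calls ended without replicate 2 of all groups, and all but that of CTSA without replicate 3. In CTSB the Dox change itself had opposite signs, with no overlap of libraries in either comparison.

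Among the named related genes, which were chosen partly by this same contrast, the values were -1.10 for ACP5, -1.05 for ASAH1, -0.70 for DPP7 (dipeptidyl peptidase 7), -0.63 for NEU1, -0.61 for TPP1, -0.50 for M6PR and -0.33 for IGF2R. The call for NEU1 ended without any one of vehicle 2, Dox 2 or 3 and Dox plus inhibitor 2 or 3. TFE3 itself differed by -0.47, and its part in the other values was not tested. Every call in this paragraph ended without replicate 2 of all groups, and also without replicate 3 of all groups. The call for IGF2R ended without any one of 9 libraries, and that for TFE3 without any one of 7.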

How the results depend on the processing

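Of 1285 cathepsin values under alternatives, 1186 stayed called or stayed uncalled, 80 lost and 17 gained a call. For a result called in the main fit, 2 values changed sign: CTSC for Dox with inhibitor at -0.05 after removing GC and length trends, with and without the replicate block. Uncalled results near 0 that changed sign are counted among the 1186, such as CTSC for Dox against vehicle (0.04, and as low as -0.18). CTSA and CTSD for Dox against vehicle were called in all 26 alternatives (0.90 to 1.06 and 0.93 to 1.15), as were CTSA, CTSD, CTSL and CTSS for the inhibitor with Dox. Members called for Dox with inhibitor were 2 by median-ratio scaling and 2 with only the groups compared. Leaving out 1 library, or 1 replicate number of all groups, gave 2 to 7 members for Dox against vehicle, 0 to 4 for Dox with inhibitor (3 at an unadjusted p under 0.05 without replicate 2), 2 to 9 for the inhibitor against vehicle (5 without inhibitor replicate 2), 4 to 6 for the inhibitor with Dox and 0 to 5 for the interaction. With the replicate number as a block, members called were 6, 5, 9, 5 and 5 in that order. Same-numbered libraries correlated at -0.072 to 0.198, 0.133 to 0.549, 0.097 to 0.686 and -0.09 to 0.135 in the 4 pairwise comparisons. For the inhibitor against vehicle, differently numbered libraries correlated at -0.594 to 0.244, a range that holds the 0.097 of the replicate 2 pair.

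Over all genes, 2269 were called for Dox against vehicle (3741 with the block, 4058 with block and trends removed, 1492 without vehicle replicate 2, 1427 without Dox replicate 3), 2304 for Dox with inhibitor (4548 with the block, 1099 with only the groups compared, 1352 without inhibitor replicate 2, and 1245 and 1121 without Dox plus inhibitor replicate 2 and 3) and 357 for the interaction (666 with the block, 905 with trends removed, 1163 with both, and 186 to 237 without any one of vehicle 2, Dox 2 or 3, inhibitor 2 and Dox plus inhibitor 2 or 3). Without replicate 2 of all groups they were 420, 129 and 7, and 1650 and 1218 for the inhibitor without and with Dox (4802 and 4063 with all libraries). Of 57 calls of the named related genes, TFE3 and PRCC, 22 held in every alternative, and none changed sign. The causes of these changes in calls were not tested, and settings that leave out libraries also have fewer of them. Depth is unknown and limits low genes such as CTSK.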

Other observations

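The ratio of CTSD to CTSA, both in FPKM, stayed between 1.749 and 1.987 in all 12 libraries. The ratio of CTSH to CTSL was 0.7045 to 0.8612 in vehicle, 0.6156 to 0.654 in Dox, 1.69 to 1.807 with the inhibitor and 0.8036 to 0.835 in Dox plus inhibitor, so that CTSH exceeded CTSL in the inhibitor libraries alone. Without CTSZ, the other 9 cathepsins summed to 423.6 to 486.2 FPKM in vehicle, 719.8 to 801.4 in Dox, 508.4 to 587.6 with the inhibitor and 513.2 to 544.4 in Dox plus inhibitor.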
